A study of Mus musculus with 12 samples.

Results

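The 43 genes described here encode complement proteins, clotting factors and their plasma inhibitors, which the liver secretes into the blood. They were chosen by name, as the rows of the count table whose Ensembl mouse identifier maps to the listed symbols, and all 43 were found among the 27022 genes of the table. C5 is carried under its mouse symbol Hc (ENSMUSG00000026874), and all 43 are protein-coding genes whose positions are given on GRCm38 from GENCODE M21. Liver RNA came from 6 female SJL/J mice, an inbred strain, that were 11 weeks old and had been fed 1 of 2 diets since 6 weeks of age. The 3 control mice had the AIN-93G diet with 50 ppm iron, and the 3 iron-loaded mice had a diet with 2% carbonyl iron, a finely divided iron powder. All mice were fasted and then perfused through the heart with phosphate-buffered saline, and RNA was taken from the large lobe of the liver. Each RNA was made into 1 library with a KAPA kit that fragments the mRNA along its whole length (Trad-KAPA) and 1 library with a Lexogen kit that reads only the 3’ end of each transcript (3’-LEXO), which gave 12 libraries. The mice were housed 4 per cage with 1 cage for each diet, and the effects of cage and diet cannot be told apart. Because whole liver was used, fewer cells of a type and less RNA per cell cannot be told apart either.

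Complement is a cascade of plasma proteases that is started by antibody (the classical pathway), by sugars on microbes (the lectin pathway) or by slow turnover of C3 (the alternative pathway). All routes cut C3 and then C5, after which C6 to C9 assemble into a pore in the target membrane. Clotting is a parallel cascade in which factors made by hepatocytes cut each other in turn until thrombin turns fibrinogen into fibrin, while antithrombin, protein C and protein S slow it and plasmin dissolves the clot. Many of these proteins belong to the acute-phase response, in which the liver alters its secretion during inflammation.

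Library totals ran from 13834682 to 16553616 counts with Trad-KAPA and from 10724672 to 14104236 with 3’-LEXO. Hepatocyte markers were abundant in every library. Of the 8 chosen, 7 were matched by symbol, and Tf was left out because the mouse annotation lists it as Trf. The 7 together took 118000.0 to 160600.0 CPM (counts per M of the library total) with Trad-KAPA and 43950.0 to 70210.0 with 3’-LEXO. Iron-loaded mouse 1 stood apart, since the SD over genes of its log2 differences from iron-loaded mice 2 and 3 was 0.491 to 0.493 with Trad-KAPA and 0.522 to 0.565 with 3’-LEXO, against 0.325 to 0.372 and 0.392 to 0.411 between control mice. Iron-loaded mice 2 and 3 were alike, with an SD of 0.228 and 0.314, but still differed by more than counting noise (chi-square per degree of freedom of 5.97 or more in each kit). Markers of Kupffer cells, the resident macrophages of the liver, were higher in the iron-loaded mice, all 8 being detected. They summed to 380.6 to 607.3 CPM in control and 687.4 to 742.3 CPM in iron-loaded mice in Trad-KAPA, where 2 of the 8 (Marco and Vsig4) passed the test of the diets, and to 882.4 to 1157 and 1163 to 1411 CPM in 3’-LEXO, where Marco did. Their part in the results below was not tested.

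Of the 43 genes, 42 had enough counts for the test of the diets in each kit. In Trad-KAPA 7 of the 42 (16.7%) passed edgeR’s quasi-likelihood test at an adjusted p under 0.05, against 17.1% of the 13151 genes tested. Kng1, C4bp and Masp1 rose (8.77% of all genes tested did), and C9, C8g, Mbl1 and F7 fell (8.37% of all genes did). In 3’-LEXO only C9 and Kng1 passed, which is 4.76% of the 42 against 6.10% of the 13301 genes tested, with 1 gene on each side (3.17% of all genes rose and 2.92% fell). Those 2 genes passed in both kits, as did 5.23% of the 12229 genes tested in both. The kits read RNA from the same mice, so that a call in both is not independent support. By edgeR the share of these genes past the test was near the background in each kit. By DESeq2, with no filter on low counts before the fit, it was 23.3% against 9.93% of 24470 genes with Trad-KAPA. With 3’-LEXO it was 11.6% against 5.58% of 23491 genes. This background includes genes with few counts. Genes that DESeq2’s own filter left without an adjusted p counted as not called. With iron-loaded mice 2 and 3 summed into 1 sample, a choice made after seeing the data, C9, C8g and F7 kept their calls with Trad-KAPA and C9 with 3’-LEXO.

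The median log2 fold change (iron-loaded over control) was -0.07 in each kit, beside 0.02 over all genes with Trad-KAPA and 0.01 with 3’-LEXO. The median size of the change without its sign was 0.18 with Trad-KAPA and 0.23 with 3’-LEXO, against 0.29 over all genes in either kit. The group was also more abundant, with a median of 432.6 CPM against 14.78 CPM over all genes tested in Trad-KAPA. In 3’-LEXO these medians were 443.1 and 13.67 CPM. The sizes were not compared at like levels. In Trad-KAPA the CPM of the diets did not overlap for 17 of the 42 genes, 7 higher and 10 lower in iron-loaded mice, where 41.2% of all genes did not overlap. In 3’-LEXO this held for 13 of 42, 6 higher and 7 lower, where 31.3% of all genes did not. Overlap was judged on library totals, whereas the fold changes were scaled between libraries by TMM. The TMM factors ran from 0.937 (control mouse 3) to 1.067 (iron-loaded mouse 1) in Trad-KAPA. For the same mice they were 0.939 and 1.056 in 3’-LEXO. Small separations, as of C3 in Trad-KAPA and of Fgb, Fgg and Pros1 in 3’-LEXO, depended on this choice. The test of whether the diet effect differed between the kits (the interaction of diet and kit) was passed by 0 of the 42 genes and by 0.00% of the 14384 genes tested, and 0 of the 42 had an unadjusted p under 0.05, against 402 of all genes. DESeq2 also called 0 of the 42, as did a fit with the mouse as a block, which called 5 genes of the whole table. The difference of the log2 fold changes (3’-LEXO minus Trad-KAPA) ran from -0.29 for C1ra to 0.29 for Proc, with standard errors (SE) from 0.155 to 0.52. These values come from the fit without the mouse as a block, which ignores that both kits read the same mice.

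**Figure D1:**
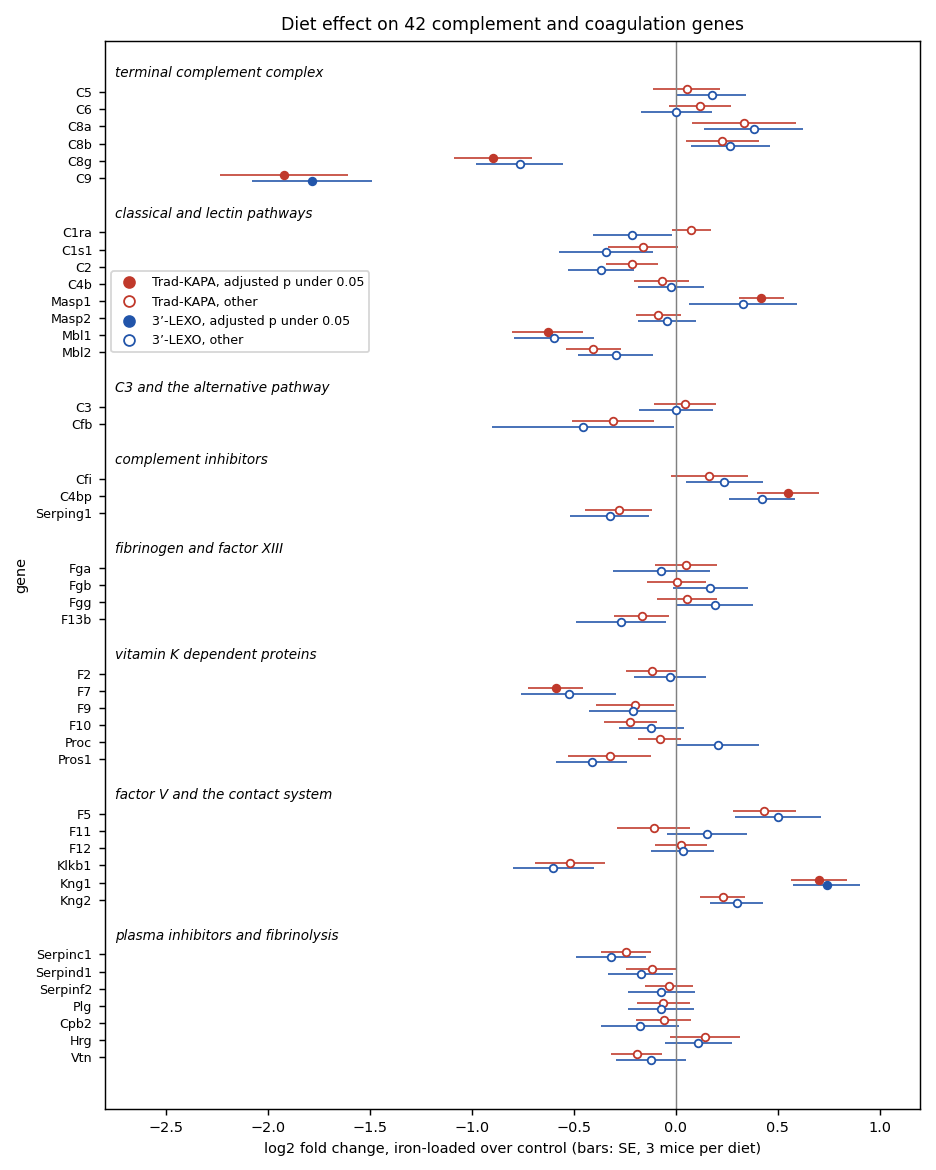
Log2 fold change of iron-loaded over control mice (x axis) with its SE for the 42 genes tested, grouped by role, in Trad-KAPA (red) and 3’-LEXO (blue). Filled points passed an adjusted p of 0.05 and open points did not. C9 at -1.92 and -1.79 lies farther from 0 than any other gene.

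Promoter sequence is shown for 3 genes past the test and for Fgb, a highly expressed gene that was not. Fgb was chosen because its window holds several of the motifs searched, so its matches are no independent comparison. What lies in front of these genes can be read beside their values. RefSeq gave a start for 34 of the 43 genes on GRCm38.p6. C2, C4b, Cfb, Cfi, Kng1, Masp1, Plg, Proc and Serping1 had no entry. Each line holds the 250 bases before the start in the direction of transcription. C9 lies at chr15:6445096-6445345 on the plus strand, C8g at chr2:25501720-25501969, C4bp at chr1:130661619-130661868 and Fgb at chr3:83049864-83050113, the last 3 on the minus strand. Capitals mark matches on either strand to GTTAAT, part of the site of the liver factor HNF1, and to TTNCNNAA, the loose site of C/EBP factors.
C9: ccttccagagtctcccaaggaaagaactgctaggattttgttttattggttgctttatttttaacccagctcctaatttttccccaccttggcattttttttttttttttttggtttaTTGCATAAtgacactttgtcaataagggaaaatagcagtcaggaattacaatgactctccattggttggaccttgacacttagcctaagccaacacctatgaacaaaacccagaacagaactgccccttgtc
C8g: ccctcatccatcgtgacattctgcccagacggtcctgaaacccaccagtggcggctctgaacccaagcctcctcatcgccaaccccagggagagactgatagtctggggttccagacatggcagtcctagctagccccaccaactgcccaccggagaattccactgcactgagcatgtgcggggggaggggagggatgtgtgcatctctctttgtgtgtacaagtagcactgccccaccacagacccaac
C4bp: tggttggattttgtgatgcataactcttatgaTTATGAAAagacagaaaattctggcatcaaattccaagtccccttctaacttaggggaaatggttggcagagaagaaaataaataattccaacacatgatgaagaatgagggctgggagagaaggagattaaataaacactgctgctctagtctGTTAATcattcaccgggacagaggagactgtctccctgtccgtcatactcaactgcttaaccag
Fgb: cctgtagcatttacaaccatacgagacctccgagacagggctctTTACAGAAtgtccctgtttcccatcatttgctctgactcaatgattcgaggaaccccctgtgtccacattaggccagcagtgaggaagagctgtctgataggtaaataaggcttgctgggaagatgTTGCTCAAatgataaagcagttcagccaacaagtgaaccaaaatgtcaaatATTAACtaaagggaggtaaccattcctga
The C9 window held 1 C/EBP match, 132 to 125 bases before the start. C4bp held an HNF1 match 64 to 59 bases and a C/EBP match 218 to 211 bases before the start. In Fgb there was an HNF1 match from 29 to 24 bases before the start, and there were C/EBP matches from 80 to 73 and from 206 to 199 bases before it. C8g held neither, nor did F7 and Mbl1, which also fell. Over the 34 windows GTTAAT was found in 9 (26.5%) against 6.43% of all 32851 windows of the same length, and TTNCNNAA in 17 (50.0%) against 36.8%. Each of the 34 genes gave 1 window, at the start nearest that of GENCODE, whereas the 32851 windows can hold several starts of a gene. TTCNNNGAA, the STAT site, was in 6 (17.6%) against 7.02%, among them Fgb at 162 to 154 bases before the start. CAAAGTCCA, the core of the HNF4 site, was in 0 of 34 against 0.384% of all windows, and GGCGCC, the element bound in the BMP response to iron, in 0 against 9.59%. Both strands were searched. The windows were not matched in base composition, on which the share holding a motif rich in A and T or in G and C depends. G and C made up 38.8% of the bases printed for C9, 40.8% for C4bp, 44.8% for Fgb and 59.2% for C8g. Whether the differences from all windows go beyond base composition was not tested. The C/EBP and STAT letters can share bases, but no match overlapped another in the windows of Fgb and the genes past the test. A match is a description of the letters, not evidence of binding.

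The largest change of the group was in the terminal complement complex, where the 2 genes that passed both fell. C9 (ENSMUSG00000022149, chr15:6445327-6498751), the subunit that polymerizes into the pore, had 261.8, 240.7 and 317.7 CPM in control mice 1 to 3 in Trad-KAPA and 40.84, 94.54 and 90.2 CPM in iron-loaded mice 1 to 3. In 3’-LEXO it had 305.7, 320.2 and 379.9 CPM in control and 56.06, 124.6 and 122 CPM in iron-loaded mice. Every iron-loaded mouse was far below every control mouse in each kit, and mouse 1 was the lowest. C9 fell by 1.92 ± 0.32 (SE) on the log2 scale in Trad-KAPA (adjusted p = 0.0085, edgeR) and by 1.79 ± 0.30 in 3’-LEXO (adjusted p = 0.011, edgeR), n = 3 per diet. The fold in CPM means was 0.275 and 0.301. C9 stayed past the threshold in 15 of 15 alternatives with Trad-KAPA and in 14 of 15 with 3’-LEXO, where leaving out control mouse 3 gave an adjusted p of 0.052.

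C8g (ENSMUSG00000015083, chr2:25498651-25501719) encodes the gamma chain of C8, a lipocalin bound to the alpha chain. Its printed window, unlike those of C9 and C4bp, held no match to either marked motif. It had 274.4, 296.8 and 330.0 CPM in control and 127.4, 185.9 and 193.3 CPM in iron-loaded mice in Trad-KAPA, and it fell by 0.90 ± 0.19 on the log2 scale (adjusted p = 0.019, edgeR). The 3’-LEXO values were 478.9, 454.2 and 553.7 CPM in control and 226.3, 318.2 and 365.1 CPM in iron-loaded mice. The diets did not overlap there either, but the log2 fold change of -0.77 ± 0.21 missed the threshold (adjusted p = 0.064, edgeR) and passed with DESeq2 (adjusted p = 0.011). The call in Trad-KAPA was lost without control mouse 2 or 3 (adjusted p = 0.059 and 0.068).

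The other C8 chains, which insert into the membrane, were not lower. C8a had 276.9, 337.1 and 391.2 CPM in control and 290.3, 512 and 524.8 CPM in iron-loaded mice in Trad-KAPA. Iron-loaded mice 2 and 3 lay above all controls, whereas mouse 1 lay among them. Its log2 fold change was 0.34 ± 0.26 with Trad-KAPA and 0.38 ± 0.24 with 3’-LEXO (adjusted p = 0.39 and 0.36, edgeR), and without iron-loaded mouse 1 it was 0.59 with an adjusted p of 0.029 in Trad-KAPA. C8b showed 89.71, 119.2 and 108.5 CPM in control and 103.4, 135 and 150.8 CPM in iron-loaded mice, a log2 fold change of 0.23 ± 0.18 and, in 3’-LEXO, of 0.27 ± 0.19. C5, whose cleavage starts the complex, was at 0.05 and 0.18, and C6 at 0.12 and 0.00, with no call. C8a and C9 were the genes of the group in which iron-loaded mouse 1 differed more than 1.5-fold from the mean of mice 2 and 3 in both kits, at 0.56 and 0.583 of that mean for C8a and 0.442 and 0.455 for C9.

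**Figure D2:**
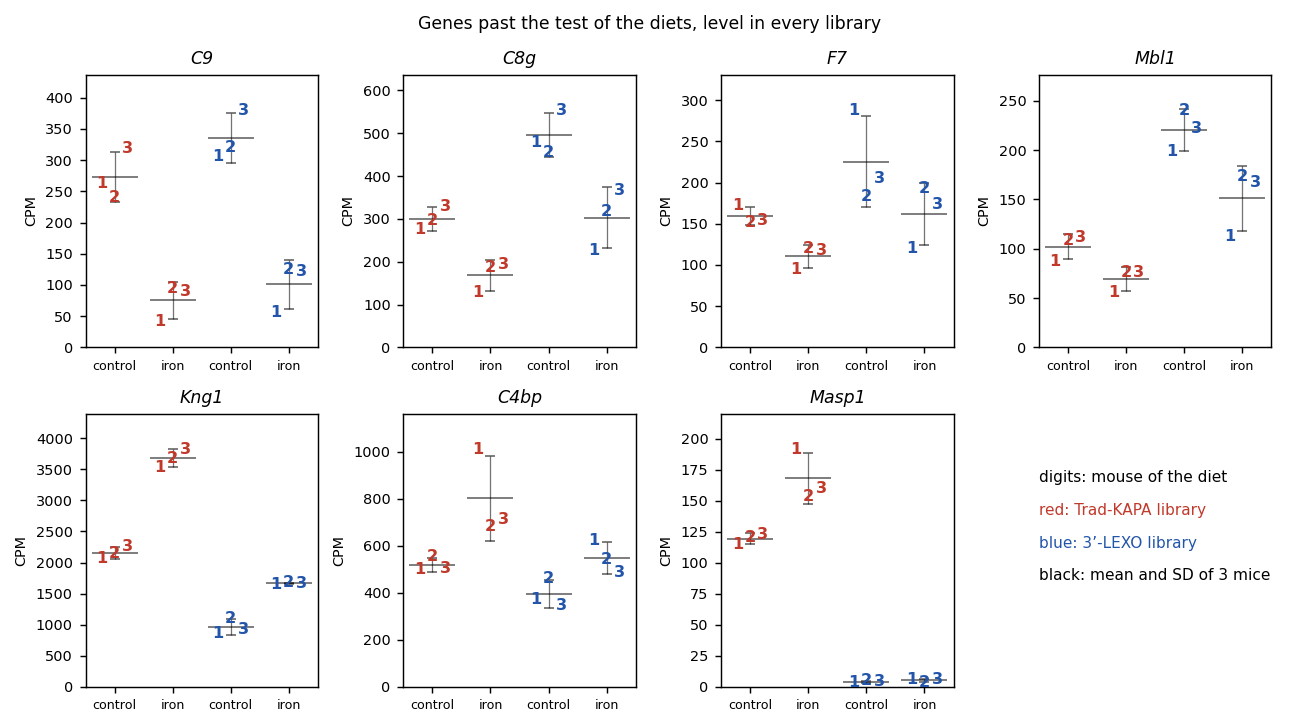
CPM of the 7 genes past the test in at least one kit, in every library, on linear axes from 0. Digits give the mouse within its diet, red is Trad-KAPA, blue is 3’-LEXO, and the black marks are the mean ± SD of 3 mice. The iron-loaded values of C9 (40.84 to 94.54 CPM in Trad-KAPA) lie below all its control values, and those of Kng1 (3534 to 3820 CPM) lie above.

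Among the 8 genes of the classical and lectin pathways, 1 rose and 1 fell with Trad-KAPA by edgeR. None passed edgeR’s test with 3’-LEXO, where 2 had an unadjusted p under 0.05. Mbl1 (ENSMUSG00000037780, chr14:41151458-41159601) encodes a mannose-binding lectin, which recognizes sugars on microbes. It had 87.23, 108.5 and 111 CPM in control and 55.48, 75.96 and 76.18 CPM in iron-loaded mice and fell by 0.63 ± 0.18 on the log2 scale in Trad-KAPA (adjusted p = 0.042, edgeR). In 3’-LEXO it had 198.6, 240.4 and 221.6 CPM in control and 112.8, 172.8 and 167.2 CPM in iron-loaded mice. The diets did not overlap in either kit. The 3’-LEXO change of -0.60 ± 0.20 missed the threshold with edgeR (adjusted p = 0.097) and passed narrowly with DESeq2 (adjusted p = 0.049). Its sister lectin Mbl2 was at -0.41 ± 0.14 in Trad-KAPA (adjusted p = 0.072, edgeR, and 0.038 with DESeq2) and -0.30 ± 0.18 in 3’-LEXO. The Mbl1 call in Trad-KAPA was lost on leaving out any library but iron-loaded mouse 1 (adjusted p from 0.052 to 0.13).

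Masp1 (ENSMUSG00000022887, chr16:23449417-23520815), a protease that rides on these lectins, moved the other way in Trad-KAPA. It had 114.7, 120.6 and 123 CPM in control and 191.5, 153.3 and 159.9 CPM in iron-loaded mice, all above the controls, and rose by 0.42 ± 0.11 on the log2 scale (adjusted p = 0.035, edgeR). The 3’-LEXO libraries gave it 3.07, 4.65 and 4.04 CPM in control and 6.14, 3.54 and 5.73 CPM in iron-loaded mice, groups that overlapped. Its log2 fold change there was 0.33 ± 0.27 (adjusted p = 0.47, edgeR). The call in Trad-KAPA was lost with all 12 libraries in one model (adjusted p = 0.091) and without any single library other than iron-loaded mouse 1 (adjusted p from 0.060 to 0.11). Masp2, its partner protease, was at -0.09 ± 0.11 and -0.04 ± 0.14. More than 50% of the exon bases of Masp2 (54.9%) lie opposite Tardbp, whose reads cannot be told apart if strand was not used in counting.

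The proteases and substrates of the classical pathway gave no call. The log2 fold change of C1ra, the C1r protease, was 0.08 ± 0.10 with Trad-KAPA and -0.21 ± 0.19 with 3’-LEXO. C1s1, the C1s protease, was at -0.16 and -0.34, C2, which with C4 forms the C3-cutting enzyme, at -0.22 and -0.37, and C4b at -0.07 and -0.02. Of the 50-base stretches in their exons, 50.8% of C1ra are also in C1rb or Gm18840. For C1s1 35.1% are in C1s2 or Gm16567, and for C4b 34.6% are in C4a. Only uniquely mapped reads were counted, so reads from stretches that occur at another place may be missing. The levels of C1ra, C1s1 and C4b are therefore uncertain. Of the exon bases of C1s1, 18.4% lie opposite Gm16567.

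C3, on which all routes converge, was the highest gene of the group per length and did not pass, at 0.05 ± 0.15 and 0.00 ± 0.18. It had 11360.0, 11880.0 and 11800.0 CPM in control and 12310.0, 12630.0 and 13000.0 CPM in iron-loaded mice in Trad-KAPA. The 3’-LEXO values were 2839, 3611 and 2978 CPM in control and 3078, 3477 and 3240.0 CPM in iron-loaded mice. On library totals the diets overlapped in 3’-LEXO but not in Trad-KAPA, where the separation depended on the scaling. Of the alternative pathway 2 genes were in the group, both with few counts. Cfb, the protease subunit of its enzyme, had 4.14 to 6.90 CPM with Trad-KAPA and 1.09 to 5.22 CPM with 3’-LEXO, with log2 fold changes of -0.31 ± 0.20 and -0.46 ± 0.45. Its exons share 79.5% of their bases with the readthrough gene Gm20547, as do 42.8% of those of C2, and that gene had no row in the table. Since reads in shared exons may not have been counted, the levels of Cfb and C2 are uncertain. Cfd, the protease that activates factor B and a product of fat tissue, had at most 1 read in a library and was not tested. Neither C3 nor Cfb had an unadjusted p under 0.05 in either kit.

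Of the 3 complement inhibitors only C4bp passed, and only in Trad-KAPA. C4bp (ENSMUSG00000026405, chr1:130634773-130661632) binds C4b and takes apart the classical C3-cutting enzyme. It had 500.1, 553.3 and 502.8 CPM in control and 1010.0, 681.8 and 713.2 CPM in iron-loaded mice in Trad-KAPA, where it rose by 0.55 ± 0.15 on the log2 scale (adjusted p = 0.041, edgeR). In 3’-LEXO it had 372.4, 460.7 and 347.1 CPM in control and 620.8, 540.8 and 485.6 CPM in iron-loaded mice. All iron-loaded mice lay above all controls in both kits, with mouse 1 the highest, but the 3’-LEXO change of 0.43 ± 0.16 did not pass (adjusted p = 0.14, edgeR). The Trad-KAPA call was lost without any library but iron-loaded mouse 1 (adjusted p from 0.061 to 0.12).

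Cfi, the protease that destroys C3b and C4b, was at 0.17 ± 0.19 and 0.24 ± 0.19, and in Trad-KAPA it passed without iron-loaded mouse 1 (log2 fold change 0.36, adjusted p = 0.044, edgeR). Serping1, the inhibitor of C1r, C1s and the contact proteases, was lower in every iron-loaded mouse in both kits, at 699.9, 941.7 and 955.4 CPM against 975.8 to 1028 CPM in Trad-KAPA. Its log2 fold changes of -0.28 ± 0.16 and -0.33 ± 0.19 did not pass (adjusted p = 0.26 and 0.33, edgeR).

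**Figure D3:**
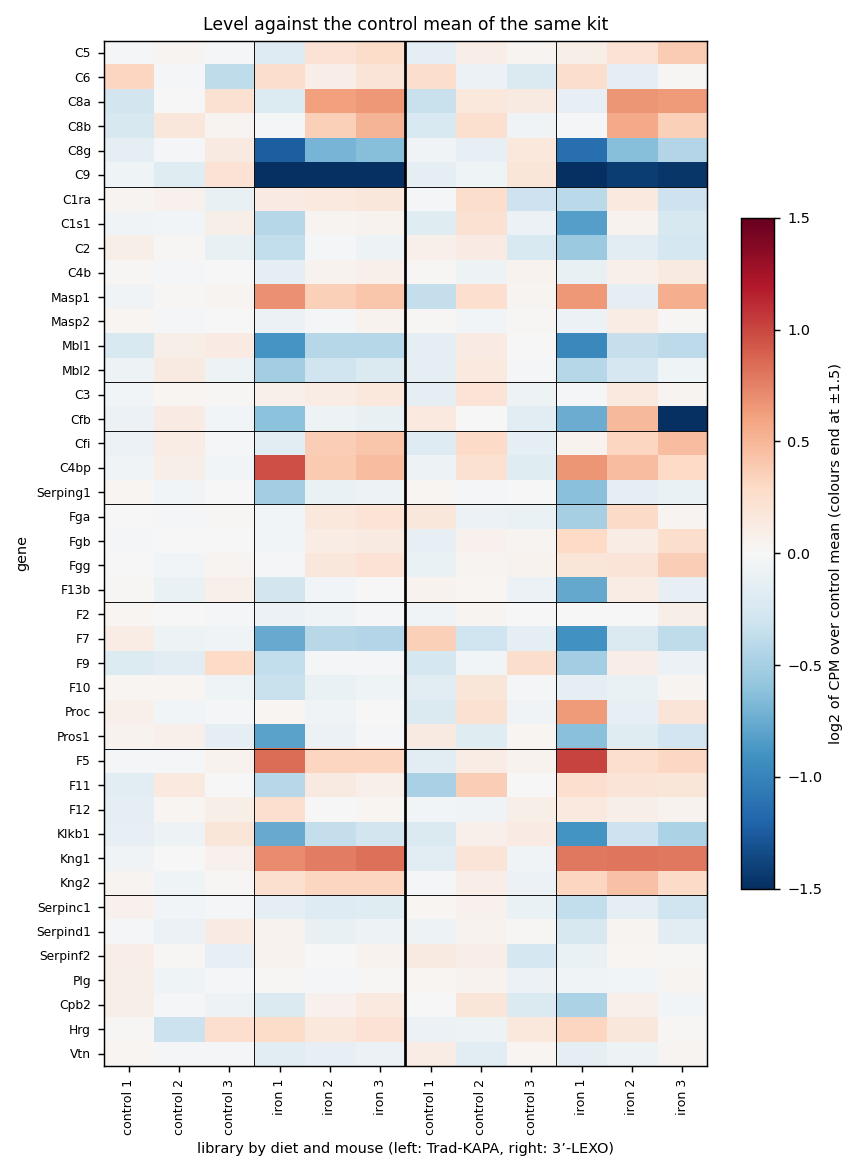
Log2 of the CPM in each library over the control mean of the same kit for the 42 genes tested, with genes in rows by role and libraries in columns (Trad-KAPA left, 3’-LEXO right, control before iron-loaded mice in each). Colours end at ±1.5, red is above and blue below the control mean. C9 and C8g are blue and Kng1 is red in all iron-loaded mice, while C8a is red in iron-loaded mice 2 and 3 but not in mouse 1.

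Fibrinogen, the substrate of thrombin and the most abundant product of the clotting genes, did not pass in either kit. Its chains lie side by side on chromosome 3. Fga had 5568, 5414 and 5588 CPM in control and 5388, 6182 and 6384 CPM in iron-loaded mice in Trad-KAPA. Fgb had 4605, 4663 and 4663 CPM in control and 4516, 5008 and 5118 CPM in iron-loaded mice, and Fgg had 3882, 3743 and 3968 CPM against 3794, 4352 and 4473 CPM. In all 3 chains iron-loaded mice 2 and 3 were above and mouse 1 within or below the control range. The log2 fold changes were 0.05, 0.00 and 0.06 in Trad-KAPA (SE 0.144 to 0.152), and 0 of the 4 genes of this role had an unadjusted p under 0.05 in either kit.

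In 3’-LEXO Fgb had 6086, 6915 and 6821 CPM in control and 8150.0, 7140.0 and 7960.0 CPM in iron-loaded mice. Fgg had 5076, 5609 and 5629 CPM in control and 6179, 6217 and 7013 CPM in iron-loaded mice, and Fga 4948, 4139 and 4118 CPM against 3126, 5372 and 4526 CPM. On library totals the groups did not overlap for Fgb and Fgg, a separation that depended on the scaling. Their log2 fold changes of 0.17 ± 0.19 and 0.19 ± 0.19 did not pass (adjusted p = 0.60 and 0.55, edgeR). That of Fga was -0.07 ± 0.24. F13b, the carrier chain of the enzyme that cross-links fibrin, was at -0.17 ± 0.14 and -0.27 ± 0.22.

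Among the vitamin K dependent proteins, which need carboxylation of glutamate residues to bind membranes, 1 of 6 passed. F7 (ENSMUSG00000031443, chr8:13026034-13035809), which starts clotting together with tissue factor, had 172.6, 151.7 and 154.3 CPM in control and 94.82, 119.7 and 117.8 CPM in iron-loaded mice in Trad-KAPA. All iron-loaded mice lay below all controls, and F7 fell by 0.59 ± 0.14 on the log2 scale (adjusted p = 0.023, edgeR). In 3’-LEXO it had 287.8, 182.9 and 204.8 CPM in control and 120.4, 193.3 and 173.1 CPM in iron-loaded mice, so that the groups overlapped. The change there was -0.53 ± 0.23 (adjusted p = 0.20, edgeR). The Trad-KAPA call was lost with all 12 libraries in one model (adjusted p = 0.077) and without any single control mouse or iron-loaded mouse 3 (adjusted p from 0.053 to 0.078).

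F10, which lies next to F7 and makes thrombin from prothrombin, was at -0.22 ± 0.13 and -0.12 ± 0.16. F2, prothrombin itself, was at -0.12 and -0.03. It had 2204, 2177 and 2113 CPM in control and 2044, 2087 and 2138 CPM in iron-loaded mice in Trad-KAPA, and 5203, 5578 and 5437 CPM against 5383, 5443 and 5725 CPM in 3’-LEXO, with diets that overlapped in both kits. F9, which activates factor X, was at -0.20 and -0.21. The anticoagulant protein C gene Proc was at -0.08 ± 0.11 and 0.21 ± 0.20. Pros1, its cofactor protein S, was at -0.33 ± 0.20 with Trad-KAPA and -0.41 ± 0.18 with 3’-LEXO. In 3’-LEXO it had 107.8, 86.51 and 100.4 CPM in control and 63.65, 86.44 and 80.27 CPM in iron-loaded mice. The diets did not overlap on library totals, which depended on the scaling, and the test was not passed (adjusted p = 0.18, edgeR).

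The contact system starts clotting at surfaces and releases bradykinin from kininogen. Kng1 (ENSMUSG00000022875, chr16:23057865-23082078), a kininogen gene, had 2072, 2137 and 2252 CPM in control and 3534, 3680.0 and 3820.0 CPM in iron-loaded mice in Trad-KAPA. In 3’-LEXO it had 852.6, 1098 and 922.8 CPM in control and 1653, 1677 and 1658 CPM in iron-loaded mice. The diets were well apart in both kits, and unlike C9 the 3 iron-loaded mice were close to each other. Kng1 rose by 0.70 ± 0.14 (adjusted p = 0.014, edgeR) and 0.74 ± 0.17 (adjusted p = 0.033, edgeR) on the log2 scale. It lost its call in Trad-KAPA without control mouse 1 or 2 or iron-loaded mouse 2 or 3 (adjusted p from 0.053 to 0.056), and in 3’-LEXO without any library but iron-loaded mouse 1 (adjusted p from 0.063 to 0.11).

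The second kininogen gene, Kng2, was also higher in every iron-loaded mouse, at 295.2, 313.1 and 312.4 CPM against 256, 239 and 253.5 CPM in Trad-KAPA and 106.9, 115.9 and 104.3 CPM against 83.88, 91.66 and 80.33 CPM in 3’-LEXO. Its changes of 0.23 ± 0.11 and 0.30 ± 0.13 did not pass (adjusted p = 0.18 and 0.20, edgeR). The paralogs share 17.2% of the 50-base stretches of Kng1 and 19.4% of those of Kng2. Klkb1, plasma prekallikrein, which cuts kininogen, was lower in every iron-loaded mouse in both kits. It had 179.5, 186.1 and 221.7 CPM in control and 116.2, 152.2 and 161.4 CPM in iron-loaded mice in Trad-KAPA, a change of -0.52 ± 0.17, and -0.60 ± 0.20 in 3’-LEXO (adjusted p = 0.072 and 0.10, edgeR). With DESeq2 it passed in both kits.

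F5, the cofactor of factor X, had 1036, 1035 and 1094 CPM in control and 1879, 1320.0 and 1320.0 CPM in iron-loaded mice in Trad-KAPA. In 3’-LEXO it had 412.6, 501.5 and 480.6 CPM in control and 939.6, 551.9 and 577.7 CPM in iron-loaded mice. The diets did not overlap in either kit and mouse 1 was by far the highest, but changes of 0.44 ± 0.16 and 0.50 ± 0.21 did not pass (adjusted p = 0.085 and 0.17, edgeR), except with DESeq2 in Trad-KAPA (adjusted p = 0.038). F11 and F12, the other contact proteases, were at -0.11 and 0.02 with Trad-KAPA and 0.15 and 0.03 with 3’-LEXO.

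Of the 7 plasma inhibitors and genes of fibrinolysis 0 passed edgeR’s test and 0 had an unadjusted p under 0.05 in either kit, and their log2 fold changes lay between -0.24 and 0.14 with Trad-KAPA and between -0.32 and 0.11 with 3’-LEXO. Serpinc1, antithrombin, was lower in all iron-loaded mice in both kits (2276 to 2348 CPM against 2533 to 2717 CPM in Trad-KAPA, adjusted p = 0.20, edgeR). Of its exon bases 34.4% lie opposite Zbtb37, which had 12.4 CPM or less. Vtn, vitronectin, was at -0.19 and -0.12, and Serpind1, the thrombin inhibitor heparin cofactor II, at -0.12 and -0.17. Plg, the precursor of plasmin (11.3% of its exon bases lie opposite Slc22a3), at -0.06 and -0.07, its inhibitor Serpinf2 at -0.03 and -0.07, and Cpb2, which protects fibrin from plasmin, at -0.06 and -0.18 were near 0. Hrg, a histidine-rich plasma glycoprotein, was at 0.14 and 0.11.

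The group spans a wide range of levels. In Trad-KAPA, per kilobase of merged exon and over all 6 libraries, C3 stood highest at 2365 ± 117 CPM per kb (SD, n = 6), followed by Fgg at 1928 ± 145 and Fga at 1912 ± 140. At the low end were C6 at 6.75 ± 1.10 and Cfb at 2.07 ± 0.323 CPM per kb, the level of Cfb being uncertain because of its shared exons. The median was 172.4 CPM per kb. In 34 of the 42 pairs of neighbours in this order the ranges overlapped, so that Fgg and Fga cannot be put in order, while C3 stood clear of Fgg. The group took 5.41, 5.36 and 5.48% of all counts in control and 5.53, 5.83 and 5.99% in iron-loaded mice in Trad-KAPA. That difference of 0.363 percentage points was at the smallest p the design allows (exact permutation test, two-sided, p = 0.1). In 3’-LEXO the shares were 4.35, 4.67 and 4.45% in control and 4.44, 4.77 and 4.87% in iron-loaded mice and overlapped (exact permutation test, two-sided, p = 0.3). These shares are of library totals with no TMM scaling, and the separation in Trad-KAPA depended on that choice. With TMM scaling the median log2 fold change of the genes was -0.07 in each kit. Only 5 genes, C3, Fga, Fgb, Fgg and Plg, held 54.6% of the counts of the group in Trad-KAPA.

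In 3’-LEXO, where each transcript gives about 1 read whatever its length, levels are CPM as they stand. Fgb stood highest at 7179 ± 768 CPM (SD, n = 6), then Fgg at 5954 ± 669 and F2 at 5461 ± 177, and Fga at 4372 ± 778 and C3 at 3204 ± 297 came after them. In 35 of 42 neighbouring pairs the ranges overlapped. The order of several genes moved between the kits. F2 was the 10th gene per length with Trad-KAPA and the 3rd with 3’-LEXO, Serpinc1 the 17th and the 6th, Klkb1 the 37th and the 23rd, and Hrg the 8th and the 22nd. With the length of the longest transcript in place of merged exons, Serpinc1 was the 12th in Trad-KAPA and F2 the 9th. The quotient of the 3’-LEXO level (CPM) and the Trad-KAPA level (CPM per kb) ran from 0.31 for Masp1 to 12.8 for Klkb1. Klkb1 shares 43.2% of its exon bases with Gm45753, which had 0.067 CPM or less, and since reads in shared exons may not have been counted, its level is uncertain.

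**Figure D4:**
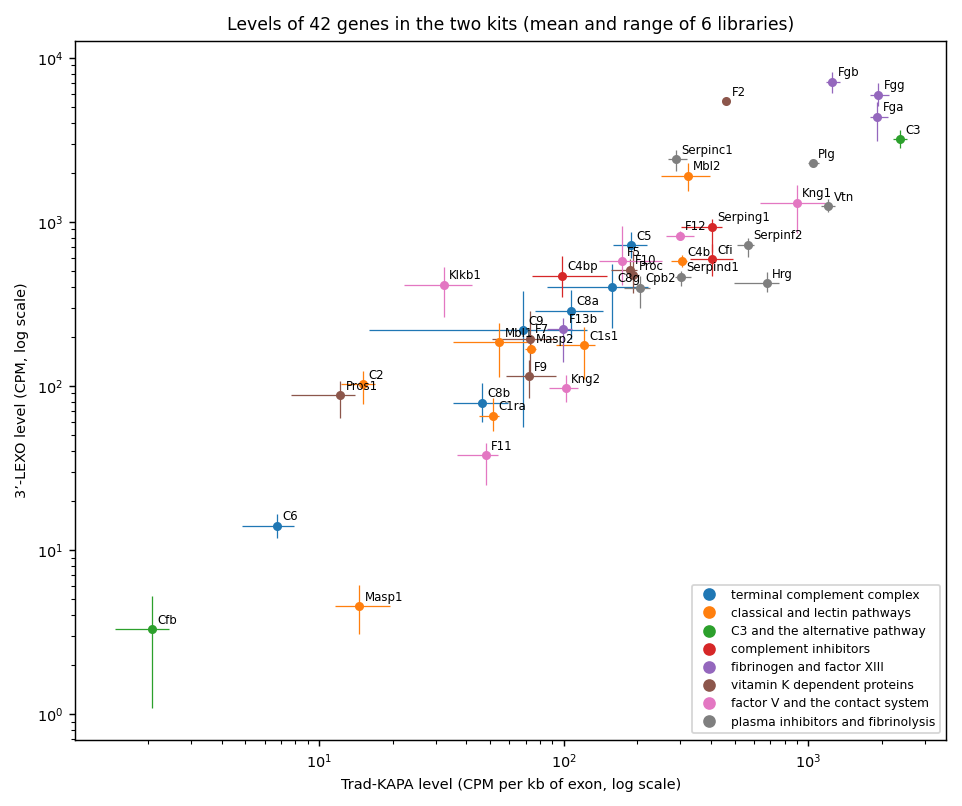
Level of the 42 genes in Trad-KAPA (x axis, CPM per kb of merged exon) and 3’-LEXO (y axis, CPM), both on log scales, with points at the mean and lines over the range of 6 libraries. C3, Fga, Fgb and Fgg lie at the upper right, Cfb at the lower left, and Masp1 has the lowest 3’-LEXO level for its Trad-KAPA level. The level of Cfb is uncertain because most of its exon bases are shared with Gm20547.

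A list of 49 further genes of complement and coagulation, such as C1q chains, receptors, cell-surface regulators and the enzymes of the vitamin K cycle, gave 7 calls among the 44 tested in Trad-KAPA (15.9%), again near the background of 17.1%. The calls described here include rises of Plaur (log2 fold change 1.68), the urokinase receptor, Vkorc1l1 (0.66), a vitamin K reductase, F8 (0.51 ± 0.13), the cofactor of factor IX, and Cd55 (0.63 ± 0.17), a membrane inhibitor of complement. Plaur was low, at 0.469 to 0.785 CPM in control and 1.91 to 2.59 CPM in iron-loaded mice in Trad-KAPA. It had too few counts for the test in 3’-LEXO. In 3’-LEXO F8 lay on the other side, at -0.48 ± 0.19, and Cd55 was at 0.02 ± 0.23. The difference between the kits was -0.98 ± 0.22 for F8 and -0.61 ± 0.28 for Cd55 and did not pass for either gene (adjusted p = 1.0, edgeR). That fit had no block for the mouse, although both kits read the same mice. The blocked values of these genes are not given here. Ggcx, the carboxylase that acts on the vitamin K dependent proteins, fell by 0.59 in Trad-KAPA, and Cd59a, which blocks C9 insertion, fell by 0.42. The median log2 fold change of the list was 0.12. In 3’-LEXO 0 of 41 tested passed with edgeR, where 6.10% of all genes did, 11 had an unadjusted p under 0.05 and 1 passed with DESeq2, and the median was 0.02. Cd59a was chosen after its values were seen.

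Regulators of liver gene expression, a list of 18 factors and signals, gave 5 calls among 18 tested in Trad-KAPA (27.8%, where 17.1% of all genes passed). In 3’-LEXO there were 4 among 17 (23.5%, where 6.10% did). The list was chosen with earlier results of these data known, so these shares are no independent comparison. With the replicate number as a block, 3’-LEXO gave 1 call (5.88%). Cebpd and Cebpb, C/EBP factors of the acute-phase response, and Bmp6, the iron-induced ligand that drives hepcidin, rose in Trad-KAPA by 1.16, 0.61 and 2.43 on the log2 scale, and Foxa2 and Nr0b2 fell by 0.68 and 1.79. In 3’-LEXO Cebpd rose by 0.98, whereas Foxa1, Foxa2 and Nr0b2 fell by 0.97, 0.88 and 1.71. The median log2 fold change of the list was -0.02 and -0.08. Whether these factors bear on the genes above was not tested.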

How the data were processed

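Raw counts of uniquely mapped reads per gene were used for 12 liver libraries (6 mice, each in Trad-KAPA and 3’-LEXO). These count values were deposited by the authors, who mapped reads with STAR 2.5.3a to GRCm38 (mm10) per the labels. The counting program, its annotation and its use of strand are not given in the sources used here. Samples were grouped by the diet and kit of the labels. Symbols, positions and merged exon lengths came from GENCODE M21.

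The 43 genes, their roles and all other lists were chosen with earlier results of these data known. CPM was computed on library totals. Within each kit, genes were filtered with filterByExpr, scaled by TMM and tested with edgeR 4.0.16 (quasi-likelihood F test) in R 4.3.3, with p adjusted over all genes tested (Benjamini-Hochberg, threshold 0.05). The interaction was fitted over the 12 libraries. DESeq2 1.42.0, the tool of the study, was an alternative. Replicates are separate mice. Genes named with values in every library were those past the threshold in a kit or in the interaction, the 3 highest per kit and those not tested, and other genes got their fold or a range. C8a, C8b, Klkb1, Kng2, F5, Pros1 and Serping1 are also given by library and were chosen for that after their values were seen. Of the further genes, at most 6 with the smallest adjusted p in Trad-KAPA were named, with exceptions marked and 1 gene not reported here. The tests were run on simulated data first. Each library held more than 10 M counts.

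Replicate numbers match between the kits because both libraries of a mouse came from the same RNA, and deviations of same-numbered libraries correlated at 0.435 to 0.765 over 10326 genes. Iron-loaded mice 2 and 3 were not told apart by this check. Their libraries correlated at 0.512 and 0.56 with the same number and at 0.574 and 0.509 with the other. Between the diets the numbers only name the mice. Alternatives were other scalings and filters, DESeq2, blocks, equal depth, leaving out each mouse, and iron-loaded mice 2 and 3 summed, which was added after the data were seen.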

Additional observations from a re-analysis of the deposited data

How the results depend on the processing

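All 7 genes past the test in Trad-KAPA kept their direction in every alternative and in both kits, but most calls were fragile. Leaving out 1 mouse gave 1 to 9 calls with Trad-KAPA and 0 to 2 with 3’-LEXO. The lowest counts came without control mouse 2 in Trad-KAPA (1 call, C9) and without control mouse 3 in 3’-LEXO (0 calls), and the highest without iron-loaded mouse 1 in Trad-KAPA (9 calls, C8a and Cfi added). Over all genes these fits gave 841 to 2803 calls with Trad-KAPA and 199 to 871 with 3’-LEXO, 0 to 2 of the 43 genes were called in both kits, 4 to 9 and 0 to 3 of the further complement and coagulation genes were called by the kits in that order, and 3 to 6 and 1 to 6 of the regulators. The median log2 fold change of the 43 genes then ran from -0.112 to -0.011 with Trad-KAPA and from -0.118 to -0.015 with 3’-LEXO.

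With iron-loaded mice 2 and 3 summed, an alternative chosen after seeing the data, calls among the 43 genes were 3 in Trad-KAPA, 1 in 3’-LEXO and 1 in both kits. All genes then gave 1147 and 445 calls, the further genes 4 with Trad-KAPA and the regulators 1 with 3’-LEXO, and the median in 3’-LEXO was -0.113. DESeq2 called 10 of the 43 genes in Trad-KAPA, 5 in 3’-LEXO and 5 in both, 1310 of all genes in 3’-LEXO and 1 of the further genes there. Without a filter on low counts there were 6 calls of the 43 genes in 3’-LEXO and 6 in both kits, 2040 of all genes and 5 of the further genes in 3’-LEXO, and 9 regulators in Trad-KAPA. One model over all 12 libraries gave 1681 calls over all genes and 3 among the further genes in 3’-LEXO. Scaling by library totals alone moved the median to -0.005 with Trad-KAPA and -0.018 with 3’-LEXO. The median level per length was 202.9 with the longest transcript and 452.6 in TPM. The cause of these shifts was not tested.

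With the replicate number as a block between the diets, 6 of the 43 genes were called in Trad-KAPA, 1 in 3’-LEXO and 1 in both kits, and 436 of all genes and 1 regulator in 3’-LEXO. Same-numbered mice of the 2 diets share only a number, as their deviations correlated at -0.163 to 0.096. With the mouse as a block between the kits, paired by replicate number, the interaction was passed by 0 of the 43 genes and 5 of all genes. Cfd, with at most 1 read in a library, could not be tested, and Cfb, with 1.09 to 5.22 CPM, and Masp1, with 3.07 to 6.14 CPM, rested on few reads in 3’-LEXO.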

Other observations

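Markers of other cells were summed in each library. In Trad-KAPA neutrophil markers ran from 1.23 to 2.30 CPM in control and from 3.5 to 6.76 CPM in iron-loaded mice. S100a8 and S100a9, calcium-binding proteins of neutrophils, rose in both kits and were the only 2 of 5 tested. Markers of cholangiocytes ran from 23.6 to 26.5 and from 33.5 to 39.0 CPM, with a rise of Spp1, osteopontin, in both kits (3 of 5 tested). Those of sinusoidal endothelium ran from 278.9 to 369.3 and from 310.0 to 379.9 CPM, with a rise of Lyve1. In 3’-LEXO they were lower in iron-loaded mice, at 286.8 to 297.0 CPM against 336.1 to 417.5 CPM, and of the 3 that passed (Fcgr2b, Lyve1 and Stab2) 1 rose and 2 fell. Markers of stellate cells ran from 252.9 to 372.0 and from 328.9 to 351.3 CPM, with a fall of Des. Platelet markers ran from 4.41 to 6.71 and from 5.47 to 5.61 CPM (1 of 5 tested). Adipocyte markers ran from 5.13 to 6.22 and from 6.47 to 11.6 CPM (4 of 5 listed, 2 tested). Red cell markers ran from 20.1 to 151.2 and from 16.4 to 28.8 CPM (4 of 5 tested). The platelet, adipocyte and red cell markers tested had 0 calls by edgeR in Trad-KAPA. Among hepatocyte markers Ass1, an enzyme of the urea cycle, fell in both kits. The part of these cells in the levels of the complement and coagulation genes was not tested.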
